A study of Mus musculus with 9 samples.

Results

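The histone genes of the mouse were followed on 9 microarrays of sorted muscle cells. Members were the non-control spots whose gene name in the scanner tables begins with Hist1h to Hist4h, H1f, H2af or H3f. These were 49 genes measured by 71 probes, of 27597 named genes and 41174 probes on the array. Names beginning with Hist were taken as replication-dependent histones (36 genes, 47 probes) and the others as replacement histones (13 genes, 24 probes). After the filter on dim probes 44 of the 49 genes were tested, 31 replication-dependent and all 13 replacement genes, among 22714 genes in all. Current symbols are used below, with the older name of the array at first mention.

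Nucleosomes are built from the core histones H2A, H2B, H3 and H4, and linker histone H1 binds the DNA between them. Replication-dependent histone genes lie in clusters, lack introns, and are transcribed mainly in S phase. Their mRNAs usually end in a conserved stem-loop in place of a poly(A) tail. Replacement histones come from single genes with polyadenylated mRNAs, are made throughout the cell cycle, and are the main source of new histone in cells that do not divide. In resting adult muscle, satellite cells, the stem cells of the tissue, are largely out of the cell cycle.

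The study asked how myogenic progenitors made from pluripotent stem cells change after engraftment into muscle. Cells of the iPax3 line (3 arrays) and of the iPax7 line (3 arrays), named after the muscle regulators Pax3 and Pax7, were re-isolated as mononucleated cells from the tibialis anterior of NSG/NSGmdx4cv hosts. NSG mice lack a working adaptive immune system, and the mdx4cv allele removes dystrophin. Adult satellite cells (3 arrays) came from the tibialis anterior of Pax7-ZsGreen mice, which carry a green reporter of Pax7. All animals were 3 months old. The labels name 1500 sorted cells, 3 mice for each line and 3 experiments, without saying how these map to the arrays. RNA was amplified as cDNA by the SuperAmp method before Cy3 labelling. Not stated either are the sort gate, the primer of the cDNA synthesis, which of the 2 host strains named each sample came from, or whether a line is 1 clone.

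Between 57.2% and 79.9% of the spots of an array were well above background, by the flag of the scanner software. The 3 lowest shares were those of iPax7 replicate 1 (57.2%), satellite replicate 2 (57.4%) and satellite replicate 3 (60.8%). The 3 iPax3 arrays and iPax7 replicate 1 lay on 1 slide, iPax7 replicates 2 and 3 on another, and each satellite array on a slide of its own. The satellite arrays were scanned on other days than the re-isolated cells. Strain, slide and scan day therefore cannot be told apart from the difference between re-isolated and satellite cells. All 10 satellite cell markers of the list used here were tested, and their summed level, as log2, was 7.03 to 7.97 on the satellite arrays against 5.22 to 6.33 on the re-isolated arrays. Pax7 itself had log2 levels of 2.89, 3.53 and -0.66 on the satellite arrays and of -3.90 to -0.53 on the 6 re-isolated arrays. The 7 markers of fibro-adipogenic progenitors and fibroblasts summed to 8.24 to 9.44 on the re-isolated arrays and to 1.83 to 2.51 on the satellite arrays. That sum separates the groups in the same way as the comparisons below, and its part in any histone difference was not tested. In such bulk samples, fewer cells of a type and less RNA per cell cannot be told apart.

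Histone genes are so alike that some of the 60-base probes share most of their sequence, and the H4 probes are shown first because the only member past the threshold is an H4 gene. Each line gives the probe of a gene 5′ to 3′, with the longest run it shares with the probe of another member in capitals.

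H4c4 (Hist1h4d): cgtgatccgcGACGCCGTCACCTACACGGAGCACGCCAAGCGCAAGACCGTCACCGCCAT
H4c6 (Hist1h4f): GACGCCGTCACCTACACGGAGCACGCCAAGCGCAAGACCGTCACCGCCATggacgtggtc
H4c14 (Hist2h4): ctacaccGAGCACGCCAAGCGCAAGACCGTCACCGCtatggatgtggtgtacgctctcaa
H4c9 (Hist1h4i): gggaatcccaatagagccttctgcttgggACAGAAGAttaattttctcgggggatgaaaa

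In the mm8 coordinates of the array, the probes lie at chr13:23589261-23589320 on the plus strand for H4c4, at chr13:23558845-23558904 on the minus strand for H4c6 and at chr3:96348435-96348494 on the minus strand for H4c14. No annotation of that build was used here, so exon and UTR positions are not given. The 3′-most 50 bases of the H4c4 probe equal the 5′-most 50 bases of the H4c6 probe with 0 mismatches. The H4c6 and H4c14 probes overlap by 49 bases with 4 mismatches (G18C, C48T, C54T and C60G, counted from the 5′ end of the H4c6 probe). Transcripts of these H4 genes may bind each other's probes, and their signals are not independent measurements of separate genes. The H4c9 probe, which the array places over only 7 bases, at chr13:22048045-22048051 on the minus strand, shared no run longer than 8 bases with the probe of any other member.

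H4c4, which encodes the core histone H4, fell in iPax3 cells. Its log2 level over the array's 75th percentile was -0.64, -1.10 and -0.78 on the iPax3 arrays, 2.47, 0.90 and 0.19 on the iPax7 arrays, and 3.70, 5.85 and 7.08 on the satellite arrays. All iPax3 arrays lay below all iPax7 arrays, and these below all satellite arrays. The difference of iPax3 from satellite cells was -6.38 ± 0.98 (SE of the limma fit, n = 3 arrays in each group, adjusted p = 0.0346). It was the only histone gene called, against 0.431% of all 22714 genes tested (98 genes; 0.361% of all genes were called higher and 0.0704% lower). At an unadjusted p under 0.05 limma had 8 histone genes lower and 1 higher in iPax3 cells, beside 5.64% lower and 6.79% higher of all genes, or 12.4% together. For iPax7 against satellite cells the difference of H4c4 was -4.36 ± 0.98 (limma adjusted p = 0.119), and 0 histone genes were called, against 0.533% of all genes (0.436% higher and 0.0969% lower). At an unadjusted p under 0.05 that comparison had 7 histone genes lower and 0 higher, beside 5.57% lower and 6.83% higher of all genes.

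The call of H4c4 rested on the spread over few arrays. Its difference stayed between -7.30 and -5.61 when each of the 9 arrays was left out in turn. The adjusted p passed the threshold without iPax7 replicate 1 (0.0337) and without satellite replicate 1 (0.00975). It missed it without iPax3 replicate 1 (0.128), 2 (0.119) or 3 (0.154), without iPax7 replicate 2 (0.0648) or 3 (0.0589) and without satellite replicate 2 (0.116) or 3 (0.101). The call was also lost with slide (limma adjusted p = 0.0989) or scan day (0.137) as a random block and in a fit of only the 6 arrays compared (0.071). A second probe for H4c4 gave -3.47 ± 0.85 for iPax3 and -2.66 ± 0.85 for iPax7 cells against satellite cells, with no overlap of the groups in either case and limma adjusted p of 0.154 and 0.284 over all probes. Of all 32982 probes tested, 0.385% were called and 18.5% did not overlap in the first comparison, and 0.434% and 15.9% in the second.

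Among the other 5 H4 genes, which were singled out after their values were seen, 4 were lower in both re-isolated lines and 1 was not. H4c6 had levels of 1.46, 0.92 and 0.80 on the iPax3 arrays, 3.55, 1.63 and 1.52 on the iPax7 arrays and 4.39, 6.56 and 7.69 on the satellite arrays. Its groups did not overlap, and its differences from satellite cells were -5.15 ± 0.97 for iPax3 (limma adjusted p = 0.0684) and -3.98 ± 0.97 for iPax7 cells (0.149). Levels of H4c14 followed those of H4c6 over the 9 arrays (Pearson r = 0.9993, n = 9, with 49 shared probe positions). Its differences were -4.41 ± 0.92 and -3.40 ± 0.92, with both lines below all satellite arrays, while the iPax3 and iPax7 arrays overlapped.

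H4f16 (Hist4h4), whose probe shares no run longer than 8 bases with that of any other member, had levels of -1.59, -2.96 and -4.18 on the iPax3 arrays, 2.54, 0.19 and -3.42 on the iPax7 arrays and 1.43, 2.88 and 3.49 on the satellite arrays. Here only the iPax3 arrays were separate from the satellite arrays, with a difference of -5.51 ± 1.43 (limma adjusted p = 0.164). A second H4f16 probe, with 23.3% G and C, gave -0.94 ± 0.81. H4c1 (Hist1h4a) differed by -1.94 ± 0.78 and -1.79 ± 0.78. H4c9, on the probe printed above, was at -3.79 to -3.31 on the iPax3, -4.30 to -3.69 on the iPax7 and -4.55 to -3.13 on the satellite arrays, and its groups overlapped.

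**Figure D1:**
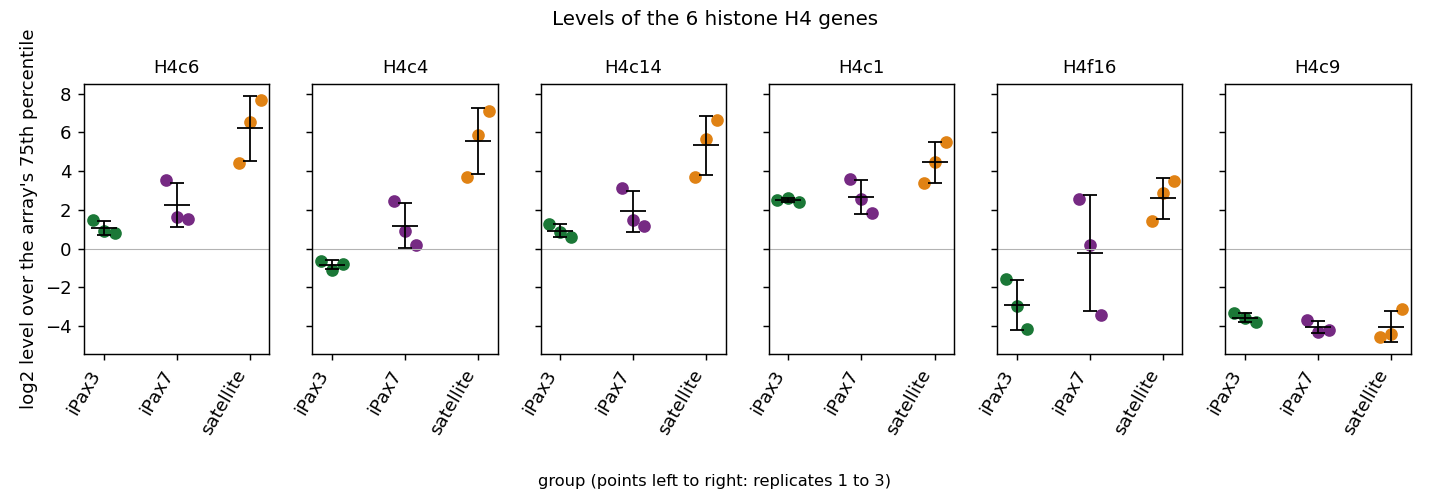
Log2 levels (vertical axis, over the array's 75th percentile) of the 6 H4 genes in iPax3, iPax7 and satellite cells (3 arrays each, points from left to right are replicates 1 to 3). Black marks show the mean and SD. For H4c4, H4c6 and H4c14 every re-isolated array lies below every satellite array, whereas the 3 groups of H4c9 overlap.

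Most H2A and H2B genes were lower in re-isolated than in satellite cells, with none past the threshold. Of 9 H2A genes tested, 7 were lower in iPax3 and 7 in iPax7 cells, with medians of -1.22 and -0.82. Without satellite replicate 3 these medians were -0.28 and -0.07, and without satellite replicate 1 they were -1.79 and -1.60. H2ac13 (Hist1h2ai) showed 0.79, 1.0 and -1.39 on the iPax3 arrays, -0.17, -0.78 and 0.04 on the iPax7 arrays and 0.44, 3.45 and 4.16 on the satellite arrays. Satellite replicate 1 lay within the iPax3 range and above all iPax7 arrays, and the differences were -2.55 ± 1.09 (limma adjusted p = 0.381) and -2.99 ± 1.09 (0.321). The array places this probe at chr13:21794624-21794683 on the minus strand, while the RefSeq promoter of H2ac13 is on the plus strand. Which H2A gene the probe reads was not tested. H2ac10 (Hist1h2af), the H2A gene with the highest mean signal, was at 3.45, 2.69 and 2.91, then 3.8, 2.73 and 2.95, then 2.41, 4.16 and 5.37 in the same order of groups. Satellite replicate 1 was its lowest array, and the differences were -0.96 ± 0.85 and -0.82 ± 0.85, while its second probe gave -2.24 ± 0.87 and -2.45 ± 0.87 with no overlap. The gap was narrow for iPax3, from 1.59 on replicate 1 to 1.62 on satellite replicate 1. That second probe overlaps the H2ac15 (Hist1h2ak) probe by 40 bases with 0 mismatches (r = 0.9246). It overlaps the H2ac13 probe by 40 bases with 2 mismatches (r = 0.9703). Which H2A transcripts it binds was not tested. H2ac18 (Hist2h2aa1) and H2ac20 (Hist2h2ac) differed by -2.46 ± 1.05 and -1.88 ± 1.41 for iPax3 and by -2.60 ± 1.05 and -1.67 ± 1.41 for iPax7 cells. The probe that stands for H2ac20 is placed by the array at chr3:96331233-96331292, beside the H2ac18 probe, and not beside the second H2ac20 probe at chr3:96305950-96306006. The 2 exceptions were H2aw (Hist3h2a) and H2ac19 (Hist2h2aa2). H2aw differed by 0.29 ± 0.75 and 0.32 ± 0.75, and its groups overlapped. A second H2aw probe, placed on the minus strand and also well above background on all 9 arrays, disagreed. It was at 2.29, 2.52 and 0.69 on the iPax3, 1.84, 1.18 and 1.80 on the iPax7 and 1.88, 3.01 and 2.95 on the satellite arrays. No direction is given for H2aw. H2ac19 was at -3.79 to -3.40 on the iPax3, -4.12 to -3.59 on the iPax7 and -6.01 to -4.34 on the satellite arrays. Its differences were 1.26 ± 0.69 and 1.08 ± 0.69, with no overlap of the groups. This probe was dim, well above background on only 2 of the 3 satellite arrays, and has 35% G and C.

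Of 8 H2B genes tested, 5 were lower in iPax3 and 6 in iPax7 cells, with medians of -1.30 and -1.28. The second of these was -2.07 without satellite replicate 1 and -0.78 without satellite replicate 3. H2bc1 (Hist1h2ba), the H2B variant known from the male germ line, had levels of 0.89, 0.27 and 1.63 on the iPax3 arrays, 3.04, 1.35 and 1.42 on the iPax7 arrays and 1.57, 5.51 and 4.70 on the satellite arrays. Satellite replicate 1 lay among the re-isolated arrays, and the difference of iPax3 cells was -2.99 ± 1.08 (limma adjusted p = 0.313). H2bc12 (Hist1h2bk) differed by -2.12 ± 1.07 and -2.29 ± 1.07. Its second probe and that of H2bc14 (Hist1h2bm) are printed because they differ by 2 bases (G53A and A54G, counted from the 5′ end), and their levels followed each other over the 9 arrays (r = 0.9983).

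H2bc12, second probe: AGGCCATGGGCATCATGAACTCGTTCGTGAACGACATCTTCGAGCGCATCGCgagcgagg
H2bc14: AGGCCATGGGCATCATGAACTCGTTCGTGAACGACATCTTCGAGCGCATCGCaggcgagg

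In the mm8 coordinates of the array they lie at chr13:22043524-22043583 and chr13:21729735-21729794, both on the plus strand. Which H2B transcripts each of them binds was not tested. With mismatches counted over the whole overlap, 10 pairs of probes for different histone genes overlapped by at least 40 bases with at most 5 mismatches, within H2A, H2B or H4. That count leaves out pairs that diverge at 1 end. The probes of H2ac1 (Hist1h2aa) and H2ac10, for example, share a run of 44 bases and are not in it.

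The 2 H3 genes tested, H3c4 (Hist1h3d) and H3c14 (Hist2h3c1), were a little lower in iPax3 cells. H3c4 had levels of 5.16, 5.28 and 5.35 on the iPax3 arrays, 6.40, 5.0 and 6.17 on the iPax7 arrays and 5.37, 6.40 and 7.14 on the satellite arrays. The iPax3 arrays lay just below the lowest satellite array, and the difference was -1.05 ± 0.73 (limma adjusted p = 0.562). The H3 median of iPax7 against satellite cells, -0.36, was 0.09 after quantile normalisation and 0.05 in the deposited value table. It was also above 0, at 0.07, without iPax7 replicate 2, so no direction is given for it.

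Of the 6 linker histone H1 genes, 4 were lower in iPax3 and 5 in iPax7 cells, with medians of -0.33 and -0.91. With each array left out they ranged from -0.72 to -0.13 and from -1.22 to -0.38, nearest to 0 without satellite replicate 3 in both. H1f1 (Hist1h1a) differed by -1.30 ± 0.76 and -1.13 ± 0.76, and H1f6 (Hist1h1t), the testis-specific H1, by -0.76 ± 0.70 and -0.47 ± 0.70. H1f2 (Hist1h1c) stood apart, at -5.78, -2.35 and 1.99 on the iPax3 arrays, -6.33, -6.66 and -7.56 on the iPax7 arrays and -8.92, -4.06 and -4.36 on the satellite arrays. It was well above background on 2 iPax3 arrays, 1 satellite array and 0 iPax7 arrays. With iPax7 signals raised to at least the dimmest one well above background on each array, the iPax3 mean was 27.7-fold higher. That mean includes an array not well above background, so the value is not a lower bound. The value rests on iPax3 replicate 3: the log2 difference of iPax7 from iPax3 cells was -4.80 with it and -2.78 without it, and -2.02 with normexp. Those groups did not overlap, and the limma adjusted p was 0.999976.

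Over the 31 replication-dependent genes, the median difference was -1.05 for iPax3 (23 genes lower) and -1.02 for iPax7 cells (26 genes lower) against satellite cells. Over all 22714 genes these medians were -0.19 and -0.15, and 54.7% and 54.1% were lower. Without overlap of the groups, 7 of the 31 genes were lower and 1 higher in iPax3, and 5 lower and 1 higher in iPax7 cells. The higher gene was the dim H2ac19 in both. The share of all genes without overlap was 19% in the first comparison (10.4% lower and 8.6% higher) and 16.5% in the second (8.88% lower and 7.64% higher). Over the 27 replication-dependent genes well above background on all 9 arrays, the medians were -1.30 (23 lower) and -1.13 (24 lower), beside -0.46 and -0.32 over the 13419 genes that met the same condition. These 2 comparisons share the satellite arrays, so they are not independent of each other. Of the medians by family, shown next to the median of all genes, those of H4 reached furthest down. They count H4c4, H4c6 and H4c14 as separate genes, although their probes overlap. The H4 probes have 58.3% to 73.3% G and C, except that of H4c9 with 45%.

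**Figure D2:**
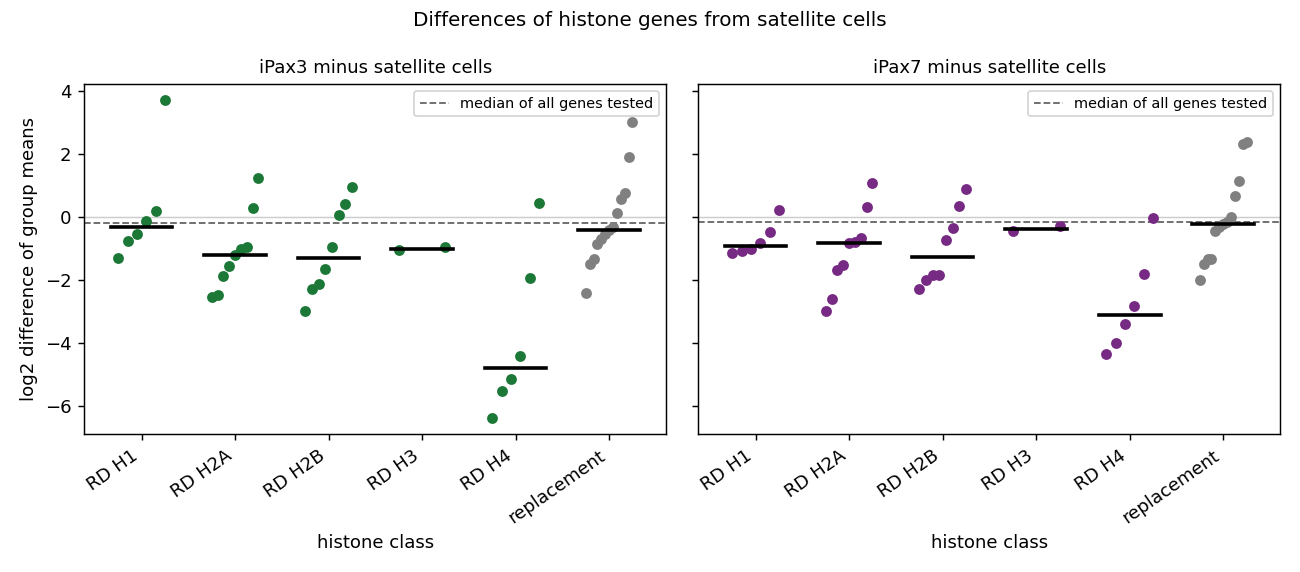
Log2 differences of iPax3 (left) and iPax7 cells (right) from satellite cells for each histone gene (points), by family of replication-dependent genes (RD) and for the replacement genes. Black bars are medians and the dashed line is the median of all genes tested. The H4 medians are -4.78 and -3.11 and count H4c4, H4c6 and H4c14, whose probes overlap, as separate genes.

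The satellite arrays were not alike. Each gene's level was centred on its mean over the 9 arrays, and the centred levels of the 27 genes were averaged per array. The result was -0.35, -0.82 and -0.97 on the iPax3 arrays, 0.27, -0.76 and -0.64 on the iPax7 arrays and -0.23, 1.46 and 2.05 on the satellite arrays. Satellite replicates 2 and 3 were high, whereas satellite replicate 1 lay within the range of the re-isolated arrays. The 3 arrays with the highest averages were those with the smallest shares of spots well above background, and the part of that in the result was not tested. The summed level of the 7 leukocyte markers, all tested, was also highest on these arrays, at log2 values of 4.30 on iPax7 replicate 1 and 3.83 and 4.36 on satellite replicates 2 and 3, against 1.85 to 2.74 on the other 6. Ptprc, the common leukocyte antigen, was at 2.01 on iPax7 replicate 1 but at -2.26 and -3.76 on satellite replicates 2 and 3. Satellite replicates 2 and 3 were also highest in the median of all 294 genes with at least 60% G and C in the probe. That median was 1.68, 2.57 and 3.18 on the satellite arrays and 1.14 to 1.84 on the others. For the 11 replication-dependent genes among them it was 2.26, 4.16 and 5.37, and 0.93 to 2.92. With 40% to under 50%, the satellite medians were -1.35, -1.43 and -1.42 for all 11219 genes. For the 6 replication-dependent genes they were -2.15, -1.18 and -0.63. The parts of leukocyte RNA and base composition in the histone pattern were not tested. Without satellite replicate 1 the medians of the 31 genes were -1.75 and -1.60. Without satellite replicate 3 they were -0.63 and -0.41. Across the 9 arrays, pairs of the 27 genes had a median Pearson r of 0.63 (range -0.54 to 0.9993), and pairs of 12 replacement genes one of 0.14. These values describe arrays that share a scaling, and the related probes count more than once.

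**Figure D3:**
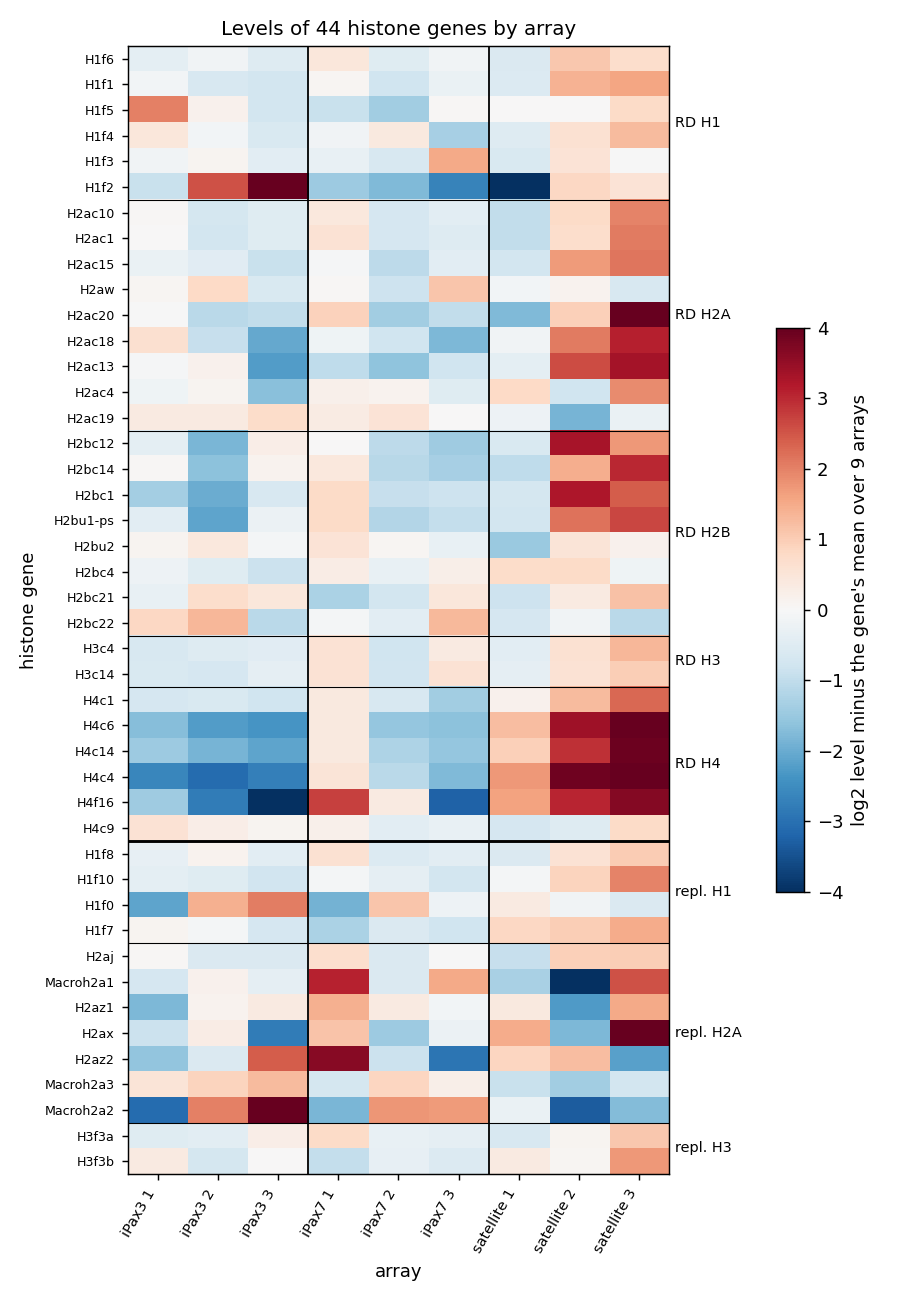
Log2 levels of the 44 histone genes tested (rows, by class and family, RD for replication-dependent and repl. for replacement) on the 9 arrays (columns), each minus the gene's mean over the arrays. The colour scale ends at -4 and 4. Satellite replicates 2 and 3 are red, above the mean, for most H2A, H2B and H4 genes.

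**Figure D4:**
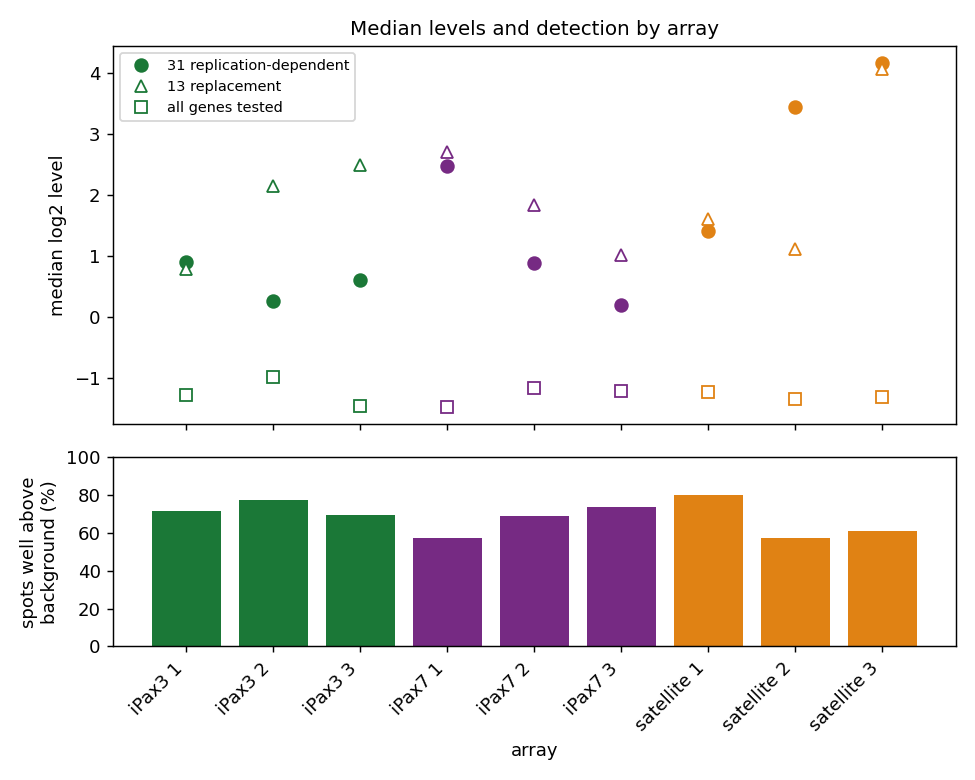
Top, median log2 level per array of the 31 replication-dependent genes (filled circles), the 13 replacement genes (triangles) and all genes tested (squares), coloured by group (iPax3 green, iPax7 purple, satellite orange). Bottom, share of spots well above background. The replication-dependent median is 3.45 and 4.16 on satellite replicates 2 and 3 and between 0.19 and 2.47 on the other arrays, and the median of all genes stays between -1.48 and -0.99.

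The base composition of the probes moved with these differences, for histones and for other genes. The 11 replication-dependent genes with at least 60% G and C in the probe were lower in both lines, 11 of 11 each time, with medians of -1.94 and -1.79. For all 294 genes with such probes the medians were -1.24 and -1.07, and 277 and 269 of them were lower. With 50% to under 60%, the 10 replication-dependent genes had medians of -1.47 and -1.48, beside -0.66 and -0.56 for all 4782 genes. With 40% to under 50%, the medians were -0.24 and -0.57 for 6 genes, beside -0.16 and -0.13 for all 11219. Below 40% they were 1.11 and 0.27 for 4 genes, beside 0.44 and 0.38 for all 6419. In each of the 2 upper ranges the replication-dependent medians lay further down than those of all genes, while in the lowest range they were not below 0. The part of base composition in the histone differences was not tested.

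**Figure D5:**
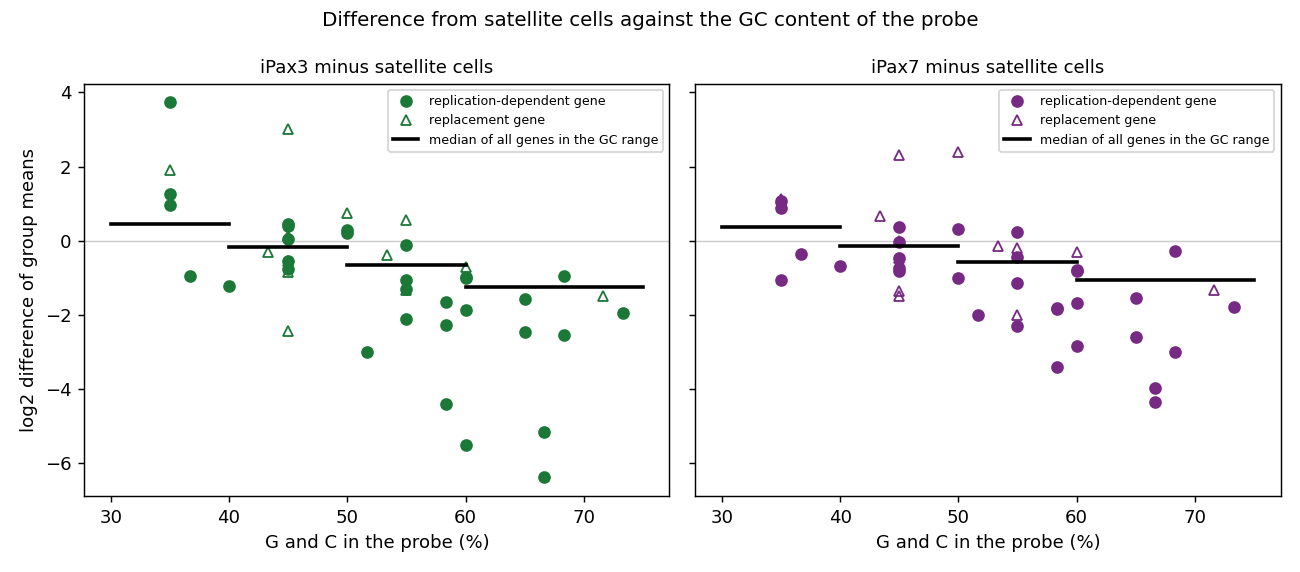
Log2 difference of iPax3 (left) and iPax7 cells (right) from satellite cells against the share of G and C in the probe, for 31 replication-dependent (filled circles) and 13 replacement genes (open triangles). Black bars are medians of all genes in each range of G and C. Both the histone genes and the bars run downward from left to right.

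The probes of the 5 untested genes were dim. H2ac6 (Hist1h2ac), H2ac8 (Hist1h2ae), H2bc6 (Hist1h2be) and H2bc18 (Hist2h2bb) were well above background on 0 of 9 arrays and H3c1 (Hist1h3a) on 2. The H3c1 probe holds the complete stem-loop element, searched as GGCTCTT, 2 free bases and CAGAGCC on the strand of the probe, and is the only one of the 41174 probes that does. The element as read from that probe, with its capitals marking the whole match, is shown because most replication-dependent mRNAs end just after it.

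H3c1 stem-loop: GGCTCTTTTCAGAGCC

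Of the histone probes that end or begin within the element and hold 1 arm, that of H2ac8 was well above background on 0 arrays. That of H2ac4 (Hist1h2ab) was so on all 9. The H1f1 probe, also on all 9, matches the letters of the 5′ arm but runs on without the 3′ arm. Its match is therefore not the element. Among all probes, 0.379% hold the 5′ arm and 0.437% the 3′ arm.

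No replacement histone gene passed the threshold in any comparison with limma. At an unadjusted p under 0.05, 1 of the 13 was higher in iPax3 cells and 1 lower in iPax7 cells, beside 12.4% of all genes in each comparison. Without overlap of the groups, 2 of the 13 were lower and 1 higher in iPax3, and 3 lower and 1 higher in iPax7 cells. These are 23.1% and 30.8%, beside 19% and 16.5% of all genes. The medians of the 13 genes against satellite cells were -0.39 (8 lower) and -0.21 (9 lower), beside -0.19 and -0.15 over all genes, and the difference from the replication-dependent class was not tested. With each array left out they ranged from -0.80 to -0.21 and from -0.63 to -0.02. The ends were reached without satellite replicates 1 and 3 for iPax3 and without iPax7 replicates 1 and 2 for iPax7 cells. The H3.3 genes, which encode the variant laid down outside replication, did not separate the groups as a pair. H3f3a had levels of 3.63, 3.68 and 4.37 on the iPax3, 4.87, 3.81 and 3.73 on the iPax7 and 3.46, 4.21 and 5.18 on the satellite arrays. H3f3b was at 4.03, 2.97 and 3.69, then 2.71, 3.36 and 3.13, then 4.03, 3.77 and 5.42 in the same order. The iPax7 arrays of H3f3b lay below all its satellite arrays on this probe (-1.34 ± 0.71, limma adjusted p = 0.485), while those of H3f3a overlapped (-0.15 ± 0.72). A second H3f3b probe, also well above background on all 9 arrays, did not separate them. It was at 2.81, 2.30 and 2.52 on the iPax7 and 3.10, 3.55 and 2.49 on the satellite arrays.

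Of the replacement linker histones, H1f7 (H1fnt), a germ-line H1, was at 0.79, 0.62 and 0.01 on the iPax3, -0.58, 0.10 and -0.12 on the iPax7 and 1.52, 1.68 and 2.16 on the satellite arrays. All re-isolated arrays lay below all satellite arrays, with differences of -1.32 ± 0.63 and -1.99 ± 0.63 (limma adjusted p = 0.426 and 0.253). H1f10 (H1fx), whose probe has 71.7% G and C, showed the same order with -1.49 ± 0.71 and -1.33 ± 0.71, but its second probe gave -0.38 and -0.44. The gap on the first probe was narrow, from 3.17 on iPax7 replicate 1 to 3.18 on satellite replicate 1. H1f0 and H1f8 (H1foo, the oocyte H1) overlapped between the groups, with differences of 0.57 and -0.21 for the first and -0.55 and -0.46 for the second.

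The macroH2A genes, whose proteins carry a large extra domain and are linked with repressed chromatin, are H2afy, H2afy2 and H2afy3 on the array, and none passed the threshold. Macroh2a3 (H2afy3) was at -0.59, -0.23 and 0.15 on the iPax3, -1.83, -0.26 and -0.87 on the iPax7 and -2.01, -2.50 and -1.86 on the satellite arrays. Every re-isolated array lay above every satellite array, narrowly so for iPax7 replicate 1, and the differences were 1.90 ± 0.68 and 1.14 ± 0.68 (limma adjusted p = 0.309 and 0.53). Macroh2a2 (H2afy2) differed by 3.02 ± 1.90 and 2.32 ± 1.90, with an iPax3 range from -4.23 to 3.63. For Macroh2a1 (H2afy) the probes disagreed: the brightest gave 0.76 and 2.39, another -3.56 and -2.63, and the third 0.11 and -0.65. No direction is given for that gene.

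The remaining H2A variants overlapped between the groups. H2az1 (H2afz), the H2A.Z gene found at promoters, differed by -0.31 ± 1.08 and 0.67 ± 1.08, and H2az2 (H2afv) by 0.13 ± 1.76 and -0.01 ± 1.76. H2ax (H2afx), the variant phosphorylated at DNA breaks, ranged from -1.64 to 4.38 on the satellite arrays and differed by -2.42 ± 1.5 and -1.49 ± 1.5. H2aj (H2afj) differed by -0.71 ± 0.76 and -0.31 ± 0.76. Its probe shares a run of 29 bases with the probe of H2ac10, a replication-dependent gene. Whether it also binds transcripts of that class was not tested.

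Between the lines, iPax7 against iPax3, 0 of the 44 histone genes and 0% of all genes were called by limma. At an unadjusted p under 0.05, 1 histone gene was lower (H1f2) and 0 were higher, beside 2.36% lower and 1.74% higher of all genes, or 4.1% together. The replication-dependent median was 0.16 and the replacement median 0.09, beside 0.07 for all genes. Both changed sign under quantile normalisation, to -0.06 and -0.18, and in the deposited value table, to -0.02 and -0.16. The groups of 3 genes did not overlap, beside 9.35% of all genes (4.46% higher and 4.89% lower) and 9.4% of all probes: H4c4 (2.03 ± 0.98) and H4c6 (1.17 ± 0.97) were higher and H1f2 lower in iPax7 cells. The second H4c4 probe overlapped between the lines (0.81 ± 0.85), and the first shares 50 bases with the H4c6 probe. Within the slide that held both lines, which leaves 1 iPax7 array against 3 iPax3 arrays and so no replicate check, the H4c4 difference was 3.31 and the medians were 0.78 and 0.81. That array, iPax7 replicate 1, had the smallest share of spots well above background. Without it, the replication-dependent median was -0.18.

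Of the genes that make, process and carry histones, 0 were called against satellite cells by limma, beside 0.431% (iPax3) and 0.533% (iPax7) of all genes. At an unadjusted p under 0.05, 0 passed in iPax3 and 2 chaperone genes were lower in iPax7 cells, beside 12.4% of all genes each. Of 16 tested genes for histone mRNA synthesis and processing, 11 were lower in iPax3 and 13 in iPax7 cells against satellite cells, with medians of -0.40 and -0.62. Npat, the coactivator of histone transcription in S phase, differed by -0.33 ± 1.08 and -0.72 ± 1.08. Slbp, the protein that binds the stem-loop, differed by 1.90 ± 1.85 and -0.94 ± 1.85. The members furthest from 0 were Hinfp, which activates H4 genes, with -3.54 ± 2.20 in iPax3 cells, and Cpsf2, part of the cleavage complex, with 3.94 in iPax7 cells. Of 20 tested chaperone and exchange genes, 8 were lower in iPax3 and 10 in iPax7 cells. The members furthest from 0 were Atrx, a remodeler that deposits H3.3, with -2.82 ± 1.27, and Nasp, an H1 and H3-H4 chaperone, with -5.55 (limma adjusted p = 0.212) in iPax7 cells. Chaf1b, a subunit of the chromatin assembly factor that works at replication forks, lay below all satellite arrays in both lines, with -1.30 ± 0.76 and -1.49 ± 0.76. Of the 20 chaperone and exchange genes, 4 (20%) did not overlap with satellite cells for iPax3 and 3 (15%) for iPax7, all lower. The shares of all genes without overlap were near these, at 19% and 16.5%.

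The S-phase genes were examined because histone supply follows DNA synthesis. Of 29 tested, 20 were lower in iPax3 and 18 in iPax7 cells, with medians of -0.83 and -0.45 and 0 calls. At an unadjusted p under 0.05, 1 was lower in iPax3 and 1 higher in iPax7 cells, beside 12.4% of all genes in each comparison. Their summed level, as log2, was 4.81 to 5.48 on the iPax3 arrays, 4.68 to 5.67 on the iPax7 arrays and 5.05, 6.16 and 6.33 on the satellite arrays. Satellite replicates 2 and 3 had the highest sums. The median level of the 29 genes did not set these arrays apart: it was -2.59, -1.70 and -1.31 on the satellite arrays, -1.03, -0.94 and -2.87 on the iPax3 arrays and -2.37, -1.74 and -2.62 on the iPax7 arrays. Mki67, which marks cycling cells, was at -1.24, 0.24 and 2.19 on the satellite arrays and between -2.47 and 1.48 on the others. Lig1, which joins DNA fragments at the replication fork, was at 3.37, 4.75 and 5.34 on the satellite and between 2.18 and 3.48 on the other arrays. It differed by -1.84 ± 0.74 in iPax3 cells, the member of this list furthest below 0 in that comparison. Among 13293 genes well above background on all arrays, the profiles most like the centred average of the 27 replication-dependent genes were those of Pdrg1 (Pearson r = 0.992), Foxh1 (0.991), 4930449E01Rik (0.990), Lig1 (0.990) and 1810027L02Rik (0.989), over 9 arrays. They were picked as the highest of 13293 values, and how many genes come close to them was not counted. No link of histone genes with S phase is read from them.

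The promoters of the members were read for 3 short motifs known from histone genes, on both strands, over 250 bases before and 50 after each start (RefSeq, GRCm38.p6). Promoters were found for 31 of the replication-dependent genes (32 promoters) and 11 of the replacement genes. CCAAT was present in 29 of the 32 replication-dependent promoters (90.6%), beside 37.4% of all 32851 promoters. TATAAA was present in 62.5% beside 13.6%, and the octamer core TTTGCAT in 34.4% beside 4.6%. The octamer core was limited to H2A (6 of 11) and H2B (5 of 8) among the families, and CCAAT was present in all H1, H2A, H2B and H3 promoters but in 2 of 5 of H4. Of the 11 replacement promoters, 7 held CCAAT, 1 TATAAA and 1 TTTGCAT, the last 2 both in H3f3b. The 100 bases before the start are printed for H4c4 and for H2bc12, as a promoter without and one with the octamer core, with matches in capitals.

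H4c4 promoter: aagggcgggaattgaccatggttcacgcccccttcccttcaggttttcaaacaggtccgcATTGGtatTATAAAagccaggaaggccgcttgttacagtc
H2bc12 promoter: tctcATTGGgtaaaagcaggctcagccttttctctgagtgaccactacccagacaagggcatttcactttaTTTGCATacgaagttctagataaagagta

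In GRCm38.p6 these stretches are chr13:23581468-23581567 and chr13:22035721-22035820, both on the plus strand. ATTGG is CCAAT on the other strand. A match is a description of the letters in the window and not a measured binding site.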

How the data were processed

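RNA levels came from 9 one-colour Agilent arrays. Per the file headers, the deposited intensity values were made by the authors with Agilent Feature Extraction 10.5.1.1. A deposited log2 value table (31918 spots; the submitters' processing notes name limma, and its centring and choice of spots are not stated) served as an alternative. The processed signal was taken as log2 minus each array's 75th percentile over non-control spots. Outlier spots were left out, and a probe entered the test if 3 or more of the 9 arrays had it well above background. The probe with the highest mean stood for its gene.

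Differences were tested with limma 3.58.1 (R 4.3.3, lmFit and eBayes) in a single fit of 3 group means, at a Benjamini-Hochberg adjusted p of 0.05 over 22714 genes. Values after ± are standard errors of that fit. The labels do not say how the 3 experiments map to the arrays, so the p-values reflect sample-to-sample spread, which may be technical. Simulated data on those 22714 genes gave back 18% of differences of size 4 (log2) and 80% of size 8 in the design of iPax3 against satellite cells, and 26% and 72% in that of iPax7 against satellite cells. The number of arrays limits the precision.

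Named were members that passed, all replacement genes, per family the gene with the highest mean and the largest difference, and list genes furthest from 0 or of known role; other members named were chosen after their values were seen. Histone members and gene lists were chosen with earlier results of these data known.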

Additional observations from a re-analysis of the deposited data

How the results depend on the processing

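Under 13 alternatives the median of the replication-dependent genes stayed below 0 against satellite cells, between -1.30 and -0.80 for iPax3 and between -1.13 and -0.62 for iPax7 cells. With each array left out it ranged from -1.75 to -0.63 and from -1.60 to -0.41. Calls moved more. The histone calls of iPax3 against satellite cells (1, H4c4) became 3 with normexp and with the deposited table, 2 with quantile normalisation, with probes well above background on all 9 arrays and with trend and robust options, and 0 with the replicate block, with slide or scan day as a random block and in a fit of only the 6 arrays compared. For iPax7 against satellite cells, 0 histone calls became 1 with normexp and 3 with the deposited table. Every gene added was H4c4, H4c6 or H4c14, lower in each case. All calls against satellite cells (98 and 121 genes) became 186 and 196 with the deposited table, 37 and 55 with the replicate block, 14 and 43 with the slide block, 27 and 36 with the scan day block, and 56 and 38 with only the 6 arrays. The second count was 76 with probes well above background on all 9 arrays. For iPax7 against iPax3, 0 genes became 1 with quantile normalisation, with probes of a gene averaged and with the slide block. Leaving out each array gave 19 to 451 genes and 0 to 3 histone genes for iPax3, and 35 to 490 and 0 to 3 for iPax7 against satellite cells. The highest counts, 451 and 490 with 3 histone genes each, came without satellite replicate 1. The replicate numbers did not pair the samples (correlations of deviations from -0.13 to 0.06), so the replicate block is given here only. The causes of these changes were not tested. Each probe as its own feature, chosen after seeing the data, called H4c4 alone.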
